A study of Oncorhynchus mykiss with 6 samples.

Results

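The transcripts described here are the long non-coding RNAs (lncRNAs) of rainbow trout liver that were assembled from the sequencing reads and lie outside the known genes. They were chosen by the class code u in the authors' exon table, which marks an assembled transcript that overlaps no known gene, and no expression value was used to choose them. There were 115 such transcripts among the 224 assembled ones with complete exons, on a list of 5916 lncRNA transcripts in all (4989 known and 927 assembled). The exon table as held here ended inside a line, after 225 transcripts. Class and exons of the remaining assembled transcripts were not available, so 115 is not a full count of intergenic lncRNAs. The rest of the 224 were 54 that share a splice junction with a known gene (j), 41 with another overlap of exons (o) and 14 that overlap exons on the opposite strand (x).

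The study compared liver of fish under heat stress with liver of control fish, to find lncRNAs induced by heat. Heat-stressed fish were warmed in steps of 1 °C per 24 h from 18 °C to 24 °C, and control fish stayed at 18 °C, with 3 libraries of each. All fish were female, 150 days old and about 200 g in weight, and both groups had spent 7 days in their 500 L tanks beforehand. Ribosomal RNA was removed before sequencing, which keeps messenger and non-coding RNA. The protocols name 12 fish and a mixing of RNA without saying which fish went into each library, so libraries may be pools and the spread between them may be technical. The tissue label is liver, while the extraction text speaks of retinas. The tables list lncRNAs only, so no marker of hepatocytes, blood or retina was measured here. As liver is a mixture of cells, more cells of a type and more RNA per cell cannot be told apart.

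The intergenic lncRNAs stand at the end of the list, and their values were held for 1 heat library (heat replicate 2) and 2 control libraries (control replicates 2 and 3). The tables of heat replicates 1 and 3 and control replicate 1 stopped before the assembled transcripts, and values there are treated as not measured, never as 0. The heat library stood for 28.3 M fragments, and control replicates 2 and 3 for 29.97 and 28.6 M (M stands for 1000000), as implied by count, FPKM and length. The heat library has no replicate, so every difference between heat and control below rests on 1 heat library, assumed in the test to vary as the controls do. At this depth a count of 0 leaves room for a level of 0.106 reads per M in the heat library, and of 0.1001 and 0.105 reads per M in control replicates 2 and 3. These limits and all count intervals cover counting error only.

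Intergenic lncRNAs are transcribed from the stretches between protein-coding genes and are usually capped, spliced and poorly conserved in sequence. In vertebrates they are known to be shorter, to have fewer exons and to be expressed at lower levels and in fewer tissues than protein-coding messages, and most have no known function. Class code u comes from the comparison of assembled with annotated transcripts, so it depends on how complete the annotation was, and an unannotated protein-coding gene would carry it too. Coding potential was not tested here, and the transcripts carry no gene name in the exon table.

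Most intergenic lncRNAs had a simple structure of 2 exons. Of the 115, 84 had 2 exons (73.0%), 17 had 3, 9 had 4, 1 had 5, 3 had 6 and 1 had 9, and none had a single exon. The same held for the other classes: the smallest number of exons was 2 in each of them, so the part of the exon table held here has no single-exon transcript. The share with 2 exons was 46.3% among the transcripts with a shared junction, 92.7% among those with another exonic overlap and 92.9% among the antisense ones. The classes differ by definition, and these shares are set side by side without a test.

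**Figure D1:**
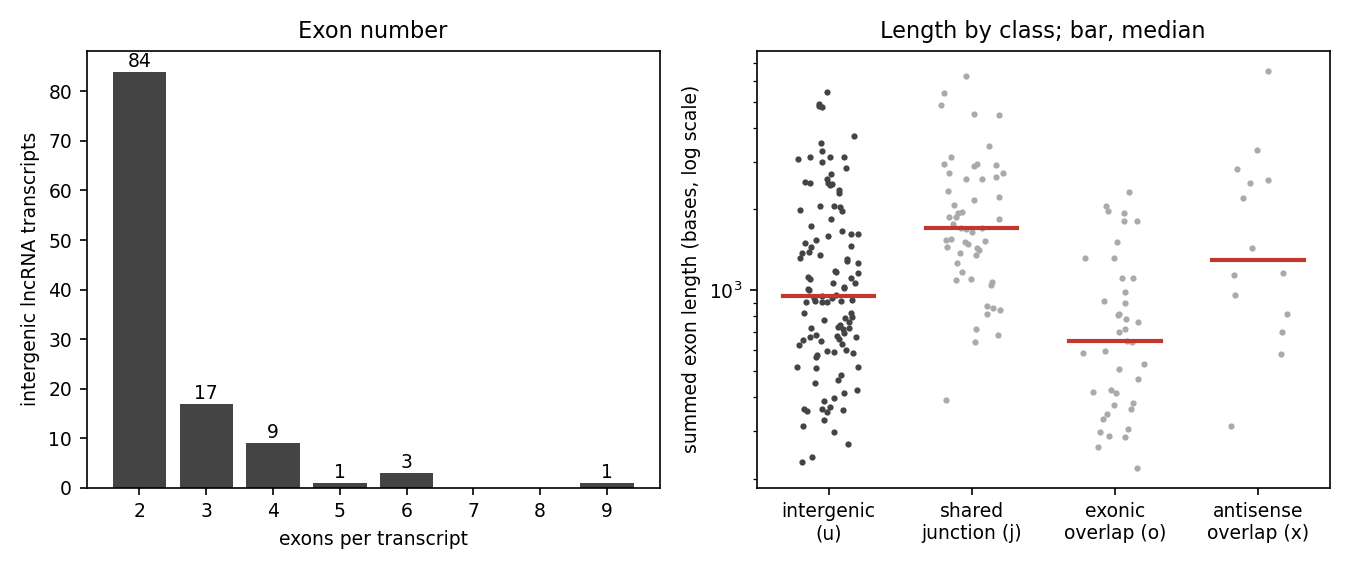
Left, number of the 115 intergenic lncRNAs (vertical axis) by exons per transcript (horizontal axis); 84 have 2 exons and 1 has 9. Right, summed exon length in bases (log scale) of each assembled transcript by class, with the median as a bar; the intergenic median of 954 bases lies below that of the shared-junction class (1702) and above that of the exonic-overlap class (647).

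The summed exon length of the intergenic lncRNAs ran from 230.0 to 5443 bases, with a median of 954 and quartiles of 631 and 1700.0 bases. Fewer than 400 bases were found in 14 of them and at least 2000 bases in 25. The median was 1702 bases in the shared-junction class, 647 in the exonic-overlap class and 1296.5 in the antisense class. The genomic span of the intergenic lncRNAs ran from 370.0 to 84151 bases with a median of 2714, and exons made up a median of 61.9% of it. In the exonic-overlap class the median span was 57488 bases, of which exons made up 1.61%.

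Last exons had the highest median length. Over all 287 exons the median was 237 bases, with first exons at 175, internal exons at 100 and last exons at 551 bases. Among the 84 transcripts of 2 exons, the second exon was the longer in 55 and the first in 29. Very short exons occurred: 36 of the 287 were under 50 bases, and the shortest was 4 bases, a last exon. The 172 introns had a median of 402.5 bases and ran from 50 to 83429 bases, with 16 over 10000 bases.

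A few transcripts stood apart in structure. TCONS_00085908 had the most exons, 9, with a summed length of 961 bases in a span of 25827 bases on the minus strand of NC_035093.1 (32554684 to 32580510). TCONS_00036072, TCONS_00034469 and TCONS_00095595 had 6 exons each and summed lengths of 776, 1169 and 1989 bases. TCONS_00036072 had no read in any of the 3 libraries. TCONS_00034472, with 5 exons, is the second transcript of the locus of TCONS_00034469. The longest transcript was TCONS_00054522 with 5443 bases in 2 exons, followed by TCONS_00000108 (4911), TCONS_00015220 (4820), TCONS_00006784 (4795) and TCONS_00103261 (3743), all of 2 exons as well. The transcripts with 3 or more exons (31) had a median length of 1118 bases, against 913.5 bases for the 84 with 2.

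The intergenic lncRNAs were spread over the genome. They lay on 28 of the 29 chromosome sequences that occur in the exon table, with the most (9 each) on NC_035079.1 and NC_035093.1 and 7 each on NC_035083.1, NC_035090.1 and NC_035091.1. No source used here names the genome build, and coordinates are those of the exon table on its RefSeq sequences. The minus strand held 65 (56.5%) and the plus strand 50.

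The 115 transcripts formed 110 loci, and 5 loci held 2 transcripts each. One further pair, TCONS_00071415 and TCONS_00071418 on the minus strand of NC_035090.1, lay 6715 bases apart, and no other members of different loci lay within 10000 bases of each other. Of the 115, 5 lay within 100000 bases of an assembled transcript of another class, and 1 of these 5 overlapped it. TCONS_00063497 lay 19940 bases from a transcript of LOC110485493 and TCONS_00011818 lay 24104 bases from one of LOC110514382, both protein-coding in the RefSeq table of USDA_OmykA_1.1 and on the opposite strand. These distances are between transcripts in the held part of the exon table only, since no annotation of the same build was used here. The overlapping member was TCONS_00063088 on the minus strand of NC_035088.1 (86187997 to 86191187). It shared 1930 bases, 62.0% of its length, with TCONS_00063090, a transcript of class o in the same locus with the gene identifier ncbi_110538817. This overlap is with an assembled transcript, and whether the member overlaps the known gene itself was not tested. For this member the word intergenic rests on the class code alone.

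**Figure D2:**
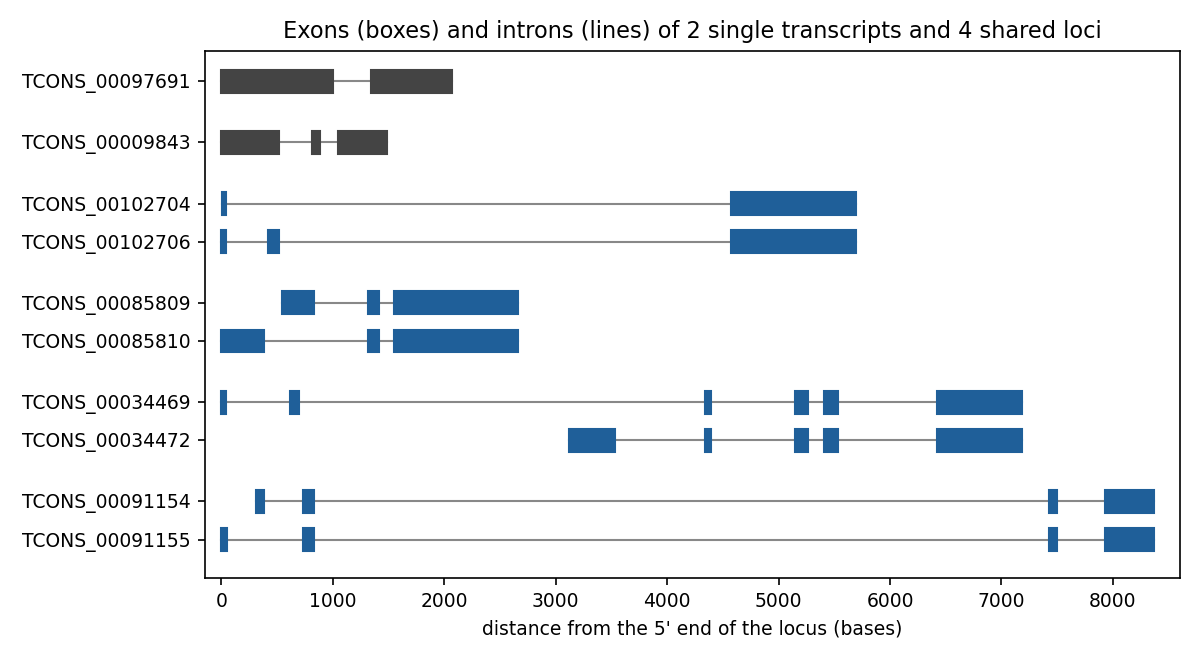
Exons as boxes and introns as lines, drawn to scale as distance in bases from the 5' end of each locus, for TCONS_00097691 and TCONS_00009843 (dark) and for 4 of the 5 loci with 2 transcripts (blue). The 2 transcripts of each shared locus overlap in the last exon and differ towards the 5' end.

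Transcripts of a shared locus overlapped in most of their bases, so their separate read counts depend on how the reads were divided. TCONS_00102704, with 2 exons, lay wholly within the exons of TCONS_00102706, which has 3 exons and is 1261 bases long. In TCONS_00103260 and TCONS_00103261, 3283 of 3287 and 3743 bases were common. Fractional counts, as arise when reads are shared out among transcripts, occurred in 30 of the 115, and 23 of these 30 were the only member of their locus. Which transcripts they shared reads with was not tested.

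Expression was low for nearly all intergenic lncRNAs. The median level was 0.20 FPKM in the heat library, and 0.29 and 0.20 FPKM in control replicates 2 and 3 (fragments per kilobase of transcript per M fragments). Low medians were shared by the other classes: in the same order, 0.24, 0.325 and 0.16 (j), 0.35, 0.51 and 0.56 (o), and 0.20, 0.27 and 0.10 (x). For the known lncRNAs the median was 0 in each library. At least 1 FPKM was reached by 19 transcripts in the heat library and by 26 and 21 in control replicates 2 and 3, and at least 10 FPKM by 3 in each. A read was found for 81 of 115 (70.4%) in the heat library and for 94 (81.7%) and 87 (75.7%) in control replicates 2 and 3. Here a read means any estimated count above 0, also one below 1. At least 10 reads were found for 46 in the heat library and for 59 and 47 in control replicates 2 and 3. The number in the heat library was below both controls at either minimum, but lay within 1 transcript of control replicate 3 for the second.

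Reads in all 3 libraries were seen for 66 of the 115 (57.4%), and 8 had none in any. A further 13 had reads in both controls and none in heat, 5 in heat alone, 9 in control replicate 2 alone and 4 in control replicate 3 alone. Estimated counts below 1 enter here: TCONS_00085809, among the 5, had 0.11 in heat. TCONS_00034472, among the 13, had 0.16 in control replicate 3. Matching counts of these patterns over the whole list are not given here. Of the 4989 known lncRNAs of the list, 18.2% had reads in all 3 libraries and 55.5% had none. An assembled transcript can enter the list only if some library had reads for it, so these shares are not independent of how the list was made. Among the other classes the share with reads in all 3 libraries was 64.8% (j), 70.7% (o) and 57.1% (x).

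One transcript held nearly all reads of the set. TCONS_00009843, 1022 bases in 3 exons on the minus strand of NC_035078.1 (58578300 to 58579784), stood at 1035.97 FPKM in the heat library, and at 12252.80 and 1344.47 FPKM in control replicates 2 and 3. The heat library and control replicate 3 were close, and control replicate 2 stood far above both. It held 29961 reads in the heat library, against 375297 and 39274 in control replicates 2 and 3, which was 88.8% of the reads of all 115 in heat, and 98.8% and 91.4% in the controls. In control replicate 2 it made up 1.25% of all fragments of the library. By FPKM it had rank 4 of 5916 in the heat library, and ranks 3 and 4 in control replicates 2 and 3. The log2 fold change was -2.32 ± 1.59 SE, which did not pass the test (edgeR adjusted p = 0.545), and without control replicate 2 it was -0.12.

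Without TCONS_00009843, the other 114 transcripts held 3782 reads in the heat library, and 4366 and 3687 in control replicates 2 and 3. These were 0.0965% of the reads on the list in heat, and 0.121% and 0.0991% in the controls.

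**Figure D3:**
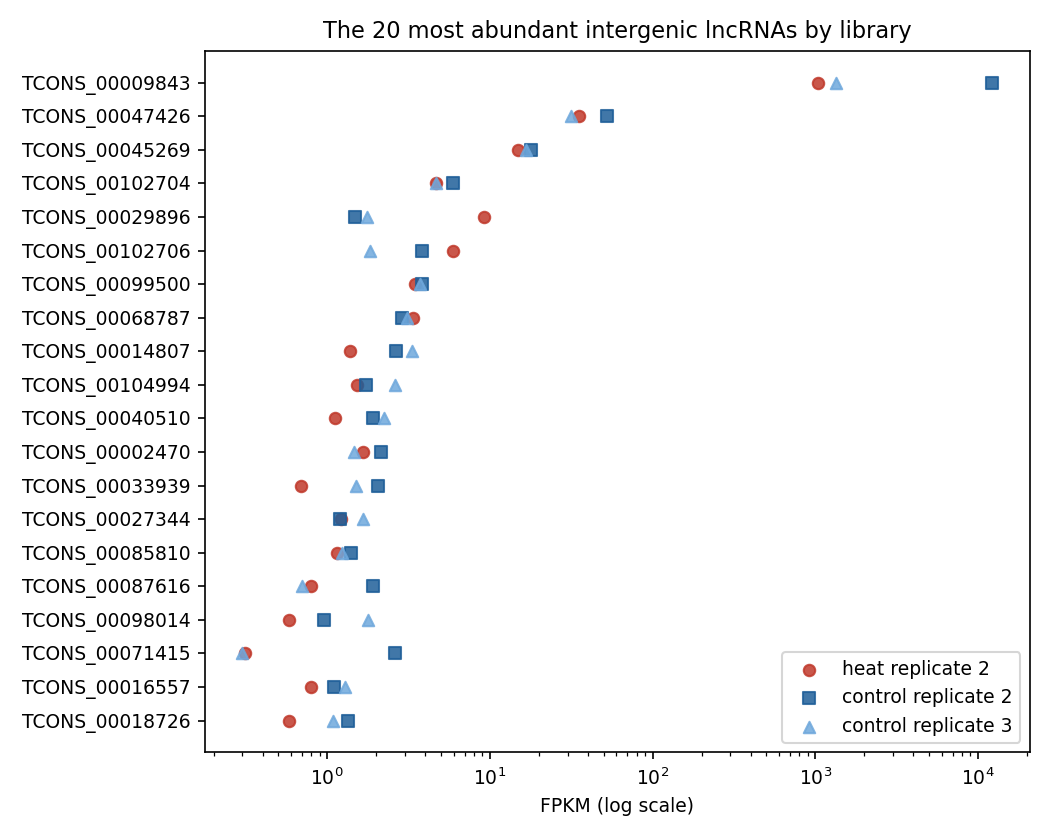
FPKM (horizontal axis, log scale) of the 20 intergenic lncRNAs with the highest mean level, 1 point for each library (red circle, heat replicate 2; dark blue square, control replicate 2; light blue triangle, control replicate 3). TCONS_00009843 lies far to the right, at 12252.80 FPKM in control replicate 2; the heat point of TCONS_00029896 lies at 9.19 FPKM, against 1.49 and 1.76 FPKM in the controls.

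Next in abundance came TCONS_00047426, 314 bases long, with 35.45 FPKM in the heat library and 52.18 and 31.31 FPKM in control replicates 2 and 3. TCONS_00045269, 1624 bases long on the plus strand of the same chromosome sequence (NC_035085.1), stood at 14.95 FPKM in heat and at 17.94 and 16.74 FPKM in the controls. In these 2 the heat value lay within the control range in the first and just below it in the second, and neither passed the test (edgeR adjusted p = 0.96 and 0.93). Their fitted log2 fold changes, 0.11 and 0.12, turn to -0.24 and -0.21 when the libraries are scaled by their implied totals, so no direction is given.

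The libraries were close for TCONS_00099500, at 3.45 FPKM in the heat library and 3.81 and 3.71 FPKM in the controls. TCONS_00068787 stood at 3.38 FPKM in heat, against 2.88 and 3.08 FPKM in controls, and TCONS_00104994 at 1.53 FPKM, against 1.74 and 2.60 FPKM. TCONS_00014807 stood at 1.38 FPKM in the heat library and at 2.65 and 3.32 FPKM in control replicates 2 and 3, a control mean of 2.98 ± 0.474 FPKM (SD, n = 2). None of these 4 passed the test, with edgeR adjusted p from 0.51 to 0.91.

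The comparison of heat with control tested 71 of the 115 transcripts, those with enough reads, in a fit across all 1511 lncRNAs of the list that passed the same filter. 1 of the 71 passed an adjusted p of 0.05 in edgeR's quasi-likelihood test, higher in heat, and 0 passed lower in heat. Over all transcripts tested 21 passed (1.39%), 16 of them higher (1.06%) and 5 lower (0.331%), so the share among the intergenic transcripts, 1.41%, was near the background. At an unadjusted p under 0.05 there were 10 of 71 (14.1%), 8 higher and 2 lower, where all transcripts tested gave 18.1%. The split by direction over all transcripts tested is not given here, so the 8 and 2 have no background beside them. DESeq2 covered every transcript with a rounded count above 0 and called 3 of 106 intergenic ones and 60 of all 3081. Its default adjustment can leave out transcripts of low mean count, and how many were left out is not given here. Limma on FPKM called 0 of 91 and 0 of all 1862. At an unadjusted p under 0.05 limma gave 10 to 12 of the 91 and 235 to 279 of the 1862.

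The median log2 fold change was -0.14 over the 71 and -0.19 over all 1511. Scaling by the implied library totals in place of TMM shifted the median of all transcripts by -0.33, to -0.53, and upper-quartile scaling shifted it by -0.19, so directions of small changes depend on the scaling. With TMM scaling, 34 of the 71 had a fold change above 0 and 37 below. The heat value lay above both control values in 27 (38.0%, against 35.8% of all transcripts tested) and below both in 25 (35.2%, against 39.5%). Folds of over 4 were fitted for 26 of the 71, 13 in each direction (36.6%, against 33.8% of all tested). Over all 1511 the directions were uneven, with 185 over 4-fold higher and 325 over 4-fold lower in heat.

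**Figure D4:**
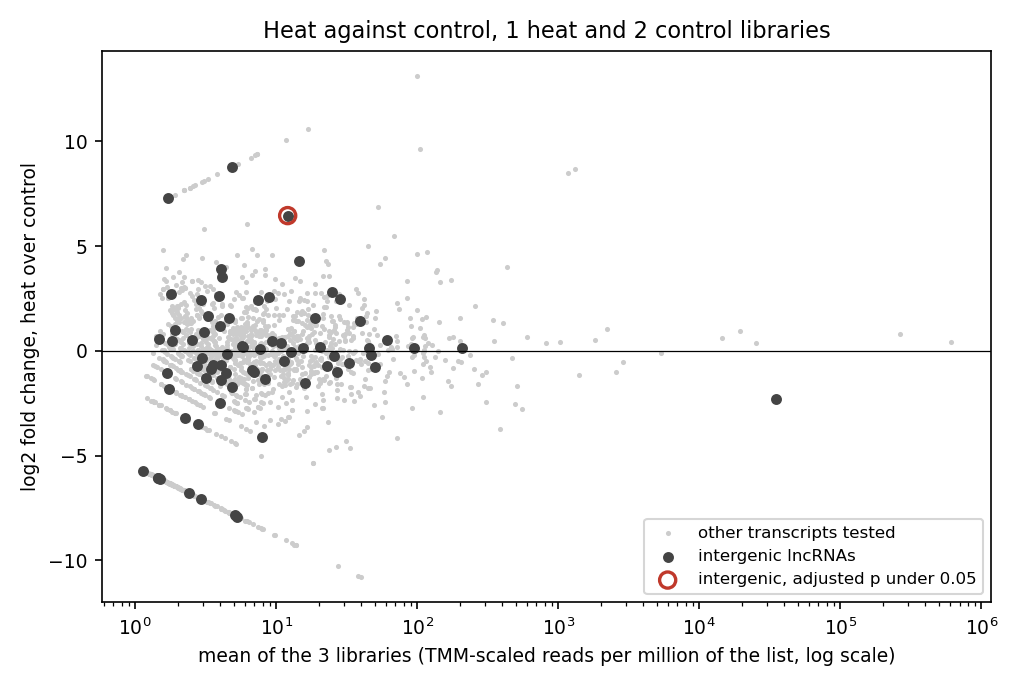
Log2 fold change of heat over control (vertical axis) against the mean of the 3 libraries in TMM-scaled reads per M reads of the list (horizontal axis, log scale), for 71 intergenic lncRNAs (dark) among 1511 transcripts tested (grey). The ring marks TCONS_00097691, the 1 intergenic lncRNA that passed the adjusted threshold; the straight lines of points at the edges are transcripts with 0 reads in a group.

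TCONS_00097691 was higher in the heat library than in both controls. This 2-exon transcript of 1734 bases lies on the minus strand of NC_035096.1 (30971185 to 30973251). It had 111 reads and 2.26 FPKM in the heat library, against 1 and 2 reads and 0.02 and 0.04 FPKM in control replicates 2 and 3. Its log2 fold change was 6.46 ± 0.75 SE (edgeR adjusted p = 0.027), 6.87 without control replicate 3 and 5.88 without control replicate 2. With 3 control reads in all, the ratio of counts was 96.6-fold, with a 95% counting interval of 32.2 to 476 under TMM scaling and 25.5 to 377 with the implied totals. All of its counts were whole numbers. The call was lost with upper-quartile scaling, with the implied totals, with a minimum count of 5 and with limma on FPKM (adjusted p from 0.055 to 0.39), in each case with the same direction.

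The other 7 transcripts that were higher at an unadjusted p under 0.05 missed the adjusted threshold. In each the heat value lay above both controls, which the choice by p and direction favours, so it adds no support. TCONS_00029896, 696 bases long on the plus strand of NC_035082.1, had 9.19 FPKM in the heat library and 1.49 and 1.76 FPKM in control replicates 2 and 3. The fold change was 2.82 ± 0.49 SE on the log2 scale, with an edgeR adjusted p of 0.061. It was the fifth most abundant intergenic lncRNA by the mean of the 3 libraries, with 181, 31 and 35 reads in the same order. In a further fit, chosen after the data were seen, it passed with an edgeR adjusted p of 0.048. In that fit, transcripts were added up by locus only where the exon table held here gave a locus, and all others stayed single. It is the only transcript of its locus in the exon table, so its own counts were not changed by the summing. Its log2 fold change was 2.83 there, and the pass came with changes to other transcripts of the fit.

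TCONS_00116612, 2049 bases in 3 exons on the plus strand of NC_035103.1, had 2.16 FPKM in heat, against 0.23 and 0.05 FPKM in controls (log2 change 4.29 ± 0.83 SE, adjusted p of 0.087 in edgeR). Its controls differed among themselves, at 14 and 3 reads, where the heat library had 125. Leaving out control replicate 2 gave a log2 change of 5.53, and leaving out control replicate 3 gave 3.56. The longest transcript, TCONS_00054522, stood at 1.29 FPKM in heat, and 0.24 and 0.33 FPKM in controls (log2 fold change 2.50 ± 0.51 SE, edgeR adjusted p = 0.081). TCONS_00100917 had 46 reads in heat and none in the controls. TCONS_00015220, another of the 5 longest, stood at 0.78 FPKM in heat and 0.33 FPKM in both controls (log2 fold change 1.56 ± 0.48 SE, edgeR adjusted p = 0.17). TCONS_00093538, picked with its values known, had a level of 0.87 FPKM in heat, and 0.06 and 0.12 FPKM in controls, and had 32.55 reads in heat, against 2.22 and 4.58 in controls. It was higher by 3.53 ± 1.14 SE on the log2 scale (edgeR adjusted p = 0.18). The last of the 7, TCONS_00102706, shares its locus with another transcript and is described with it.

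**Figure D5:**
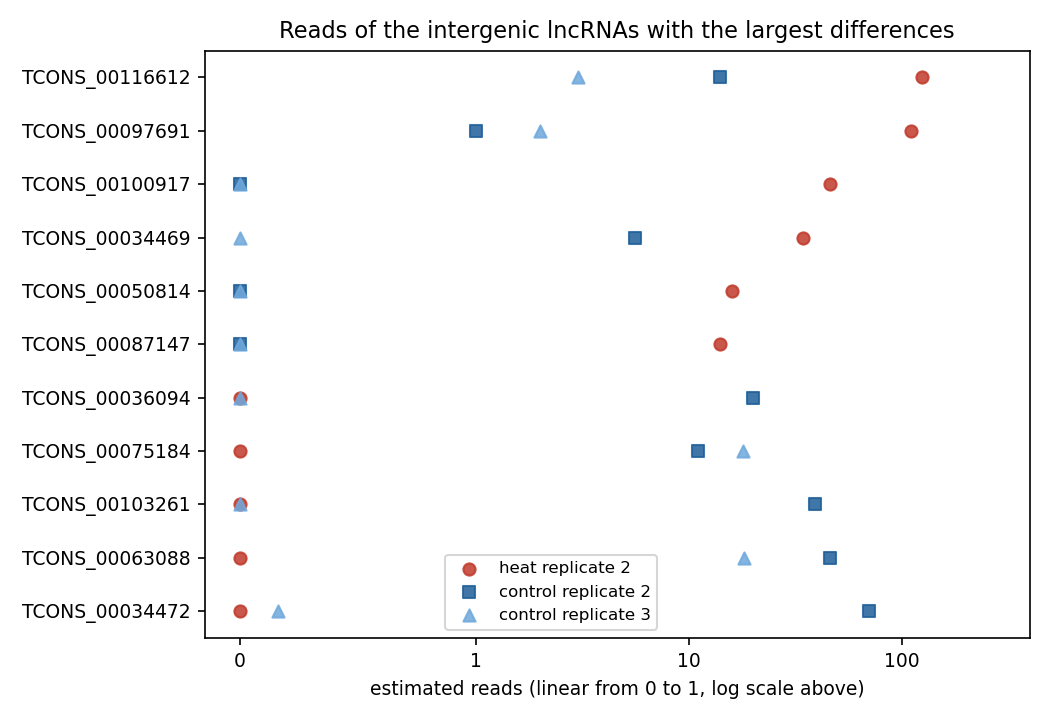
Estimated reads (horizontal axis, linear from 0 to 1 and log above) in the heat library (red circle) and in control replicates 2 and 3 (dark blue square and light blue triangle) for 11 intergenic lncRNAs: the called one, those at 0 in a whole group with at least 10 reads in the other, and those with the largest fitted changes. In TCONS_00036094, TCONS_00103261 and TCONS_00034472 nearly all control reads come from control replicate 2 alone.

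Reads in heat alone, with at least 10 of them, were found for 3 transcripts. The matching count over the whole list is not given here, so this number has no background beside it. TCONS_00100917, 2832 bases in 2 exons, had 46 heat reads (0.57 FPKM) and was at least 40.1-fold higher in heat, with a floor of 3 reads over both controls (at least 31.7-fold with the implied totals, 18.5-fold without control replicate 2 and 21.6-fold without control replicate 3). It missed the threshold in edgeR (adjusted p = 0.076) and passed it in DESeq2 (adjusted p = 0.017). TCONS_00050814, whose 2 exons of 602 bases in all span 45800 bases, had 16 heat reads. This was at least 13.9-fold more than in controls (adjusted p of 0.32 in edgeR), or 11.0-fold with the implied totals. It was at least 6.42-fold and 7.51-fold without control replicates 2 and 3. TCONS_00087147 had 14 heat reads, did not pass the filter and was at least 12.2-fold higher, or 9.66-fold with the implied totals. Without control replicates 2 and 3 the bounds were 5.62-fold and 6.57-fold. All such bounds, here and below, take the reads of the group above 0 as they stand, without their counting error.

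At least 10 reads in each control and 0 in heat were found for 2 transcripts, again with no count over the whole list to set beside them. TCONS_00063088, the member that overlaps a transcript of another class, had 0 reads in heat, against 46.05 and 18.12 reads in control replicates 2 and 3. It was at least 8.19-fold lower in heat (edgeR adjusted p = 0.13), and at least 5.02-fold without control replicate 2. Its overlapping partner TCONS_00063090 had 13.95 reads in the heat library, and 20.83 and 30.63 reads in the controls, so reads did fall on the shared locus in heat. The counts above 0 of both are fractional, and how reads were divided between them was not tested. TCONS_00075184, 363 bases long on NC_035091.1, had 0 reads in heat and 11 and 18 in controls, at least 3.70-fold lower in heat (edgeR adjusted p = 0.28). The bound was 4.98-fold without control replicate 2 and 2.60-fold without control replicate 3.

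Besides TCONS_00063088, an unadjusted p under 0.05 with a value lower in heat was given by TCONS_00106827, a transcript of 4 exons and 2508 bases on NC_035100.1, chosen after its values were seen. It had 2 reads in heat, against 48 and 46 reads in control replicates 2 and 3, and 0.03 FPKM against 0.64 FPKM in both controls. The controls were nearly equal and the heat value lay far below. The ratio of heat to control reads was 0.0556, with a 95% counting interval of 0.00663 to 0.206, and the fitted log2 change was -4.11 ± 1.01 SE (edgeR adjusted p = 0.11).

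3 of the 5 most negative fitted changes rest on control replicate 2. TCONS_00034472 had 0 reads in heat, and 70.25 and 0.16 reads in control replicates 2 and 3. TCONS_00103261 had 0 in heat, and 39 and 0 in the controls, and TCONS_00036094 had 0 in heat, and 20 and 0 in the controls. In all 3 transcripts the heat library and control replicate 3 were at or near 0, and no test was passed (edgeR adjusted p from 0.53 to 0.58). TCONS_00034472 and TCONS_00103261 each share a locus with another transcript, and the reads of the whole locus were not alike. The locus of TCONS_00034472 had 34.23 reads in heat and 0.16 in control replicate 3, and that of TCONS_00103261 had 8 and 40.

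The controls themselves differed widely for some intergenic lncRNAs. At least 10 reads in one control and 0 in the other were found for 10 of the 115 (and for 167 of the 5916 on the list). These counts are not like for like, since 55.5% of the 4989 known lncRNAs on the list had no read in any library. The median absolute log2 ratio over the 71 tested was 1.61 between heat and control replicate 2 and 1.05 between heat and control replicate 3, against 0.67 between the controls. Over all 1511 these values were 1.34, 1.34 and 0.80. Ratios of over 4-fold were found in 29 of 71 (40.8%) between heat and control replicate 2. The number was 24 (33.8%) between heat and control replicate 3 and 17 (23.9%) between the controls. Over all 1511 the shares were 34.5%, 34.5% and 20.7% in the same order. Across the 71 transcripts, Spearman's rho of the log2 values was 0.42 for heat and control replicate 2, 0.57 for heat and control replicate 3 and 0.70 for both controls. Across all 1511, rho was 0.52, 0.51 and 0.68 in the same order. Transcripts are not independent replicates, and many rest on few reads.

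In 3 of the 5 shared loci the division of reads between the 2 transcripts moved between libraries. The locus of TCONS_00103260 and TCONS_00103261 had 8 reads in heat, and 39 and 40 reads in control replicates 2 and 3. All reads of heat and of control replicate 3 were given to TCONS_00103260 and all reads of control replicate 2 to TCONS_00103261. The controls were nearly equal for the locus, and each was at 0 for one of its transcripts. Summed over the locus, the log2 fold change was -1.91 ± 0.89 SE (edgeR adjusted p = 0.32).

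The locus of TCONS_00102704 and TCONS_00102706 was the most abundant of the 5, with 365 reads in heat, and 351 and 221 reads in the controls. TCONS_00102704 took 42.0% of them in heat, and 59.0% and 70.2% in control replicates 2 and 3. TCONS_00102704 stood at 4.69 FPKM in heat, and 5.97 and 4.69 FPKM in controls, and TCONS_00102706, the form with the added exon, at 5.93 FPKM in heat, and 3.82 and 1.83 FPKM in controls. The heat value of TCONS_00102706 lay above both controls but did not pass (log2 fold change 1.43 ± 0.56 SE, edgeR adjusted p = 0.26), and the locus as a whole gave 0.76 ± 0.48 SE (edgeR adjusted p = 0.47).

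The other 3 shared loci had fewer reads than that of TCONS_00102704 and TCONS_00102706. In the locus of TCONS_00085809 and TCONS_00085810 nearly all of the 52 reads in heat, and the 67 and 56 reads in controls, went to TCONS_00085810, which stood at 1.15 FPKM in heat and 1.40 and 1.23 FPKM in controls. The locus of TCONS_00034469 and TCONS_00034472 had 34.23 reads in heat, all given to the 6-exon form. It had 75.82 reads in control replicate 2, of which the 6-exon form took 7.35%, and 0.16 in control replicate 3. TCONS_00091154 had no read in any library and TCONS_00091155 had 0 in heat, and 9.58 and 8 in the controls.

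The neighbouring pair of separate loci on NC_035090.1 differed in steadiness. TCONS_00071418 had 20 reads in heat, and 23 and 21 in controls, whereas TCONS_00071415, 230.0 bases long and the shortest intergenic lncRNA, had 2 in heat and 18 and 2 in controls. The 9-exon TCONS_00085908 had 0.47 FPKM in heat, against 0.95 and 1.35 FPKM in controls (edgeR adjusted p = 0.62).

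Levels are given by exon number without a test. The median FPKM of the 31 transcripts with 3 or more exons was 0.08 in heat, and 0.29 and 0.16 in control replicates 2 and 3. That of the 84 with 2 exons was 0.24 in heat, and 0.295 and 0.28 in the controls. At least 10 reads in every library were found for 6 of the 31 and 23 of the 84, 29 of 115 in all.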

How the data were processed

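Liver RNA of heat-stressed and control rainbow trout was sequenced in 3 libraries each. Bowtie2 2.2.8 and TopHat2 2.1.1 were used, per the submitters' processing notes, and transcripts were assembled with Cufflinks, per the exon table. The sources used here name no quantifier and no genome build, and do not say whether reads were counted by strand. The authors deposited per transcript an estimated count, without normalization, and an FPKM value, scaled by transcript length and library, per the file headers. Exon coordinates were used as deposited. The exon table ended inside a line before all assembled transcripts were covered, and the transcript cut off there was dropped.

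Library totals were taken as count divided by FPKM and length, over 20 assembled transcripts with exons (range 28.25 to 28.41 M in heat, 29.89 to 30.02 M and 28.50 to 28.63 M in controls). Estimated counts were rounded to whole numbers. The test was that of edgeR 4.0.16 (R 4.3.3), with a minimum count of 10 (filterByExpr), TMM scaling, robust quasi-likelihood F tests, two-sided, Benjamini-Hochberg over all 1511 transcripts tested, threshold 0.05, no covariate. The SE is the log2 fold change divided by the root of F. Alternatives were other scalings and filters, DESeq2 1.42.0, limma 3.58.1 on log2(FPKM + 0.1, 0.01 or 1) for transcripts of at least 0.1 mean FPKM, and leaving out each control. Folds against a group at 0 are bounds at a floor of 3 reads and leave out the counting error of the other group. Counting intervals are exact (Clopper-Pearson) on the 2 read totals.

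Named transcripts are those called, the 10 most abundant, those with the most exons or longest, those at 0 in 1 group, the 5 largest fitted changes in each direction, and pairs within 10000 bases. TCONS_00093538 and TCONS_00106827 (unadjusted p under 0.05) and TCONS_00063497 and TCONS_00011818 (nearness to another class) were added after their values were seen. The transcripts and lists were chosen with earlier results of these data known.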

Additional observations from a re-analysis of the deposited data

How the results depend on the processing

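The number of intergenic lncRNAs called (1) stayed at 1 with size factors and without TCONS_00009843 in the table. It was 0 with upper-quartile scaling, the implied totals, a minimum count of 5 and limma at each pseudocount, 3 with DESeq2, 7 with no filter on low counts and 2 with isoforms summed per locus. Over all transcripts, the 21 calls became 36 with size factors, 6 with upper-quartile scaling, 180 with no filter, 60 with DESeq2, 47 per locus and 0 with the implied totals, a minimum count of 5 and limma (270, 262 and 235 to 279 at an unadjusted p under 0.05). The share of calls that were higher was 76.2%, 55.6% with no filter and 53.3% with DESeq2. The cause of these shifts was not tested. In the fit per locus, only the 224 assembled transcripts with complete exons could be added up, and all other transcripts entered singly. The median log2 fold change of the intergenic lncRNAs was -0.10 with size factors, -0.32 with upper-quartile scaling, -0.37 with the implied totals, -0.54 with no filter, -0.51 with DESeq2, -0.36 with limma at 0.1 and at 0.01, -0.10 without TCONS_00009843, -0.088 per locus, and -0.053 to 0.00 without a control. Over all transcripts the first 5 of these were -0.15, -0.38, -0.53, -0.55 and -0.52, and limma gave -0.31 at 0.1 and -0.32 at 0.01. No filter and DESeq2 covered 106 intergenic lncRNAs and limma 91, against 71 in the main fit.

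Among the named transcripts, the sign of TCONS_00097691 held under every alternative, and the signs that turned were of others that missed the threshold. In the order upper-quartile, implied totals and limma at 0.1, 0.01 and 1, the log2 fold change was -0.064, -0.21, -0.21, -0.21 and -0.20 for TCONS_00045269, -0.076, -0.24, -0.19, -0.19 and -0.19 for TCONS_00047426, -0.039, -0.19, -0.18, -0.19 and -0.11 for TCONS_00085810, and -0.026, -0.18, -0.17, -0.17 and -0.15 for TCONS_00102704. With the last 4 of these it was -0.087, -0.080, -0.089 and -0.040 for TCONS_00071418 and -0.12, -0.12, -0.12 and -0.10 for TCONS_00099500. It was 0.59 for TCONS_00103260 with limma at 0.01. Leaving out a control turned 6 signs: to -0.29 for TCONS_00006784 and 0.24 for TCONS_00071415 without control replicate 2, and to -0.21 for TCONS_00047426, -0.43 for TCONS_00095595, 5.27 for TCONS_00103260 (0 reads in the remaining control, so no measure of size) and 0.17 for TCONS_00104994 without control replicate 3. Detection at 10 reads gave 46 transcripts in heat and 59 and 47 in controls, and the median FPKM of transcripts with a read was 0.43 in heat and 0.46 and 0.43 in controls.

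No paired analysis was possible because 1 heat and 2 control libraries list these transcripts, which leaves no residual degrees of freedom once the replicate number is a block. Leaving out a control leaves 1 library in each group, a value with no test, and leaving out the heat library leaves no comparison. At these depths 44 of the 115 had too few reads to be tested. No genome of the same build was used here. The sums per locus and the table without TCONS_00009843 were chosen after seeing the data.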
